A study of Mus musculus with 8 samples.

Results

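The BCL2 family decides whether a cell opens its mitochondria and dies, and 10 of its genes were followed here in mouse thymocyte precursors: the survival genes Mcl1, Bcl2 and Bcl2l1, the death genes Bcl2l11, Bid, Bbc3, Bmf, Bad and Pmaip1, and the pore-forming gene Bak1. Members were chosen by symbol, as every probe set that the platform annotation gives to one of these genes, which found 10 of 10 genes with 32 probe sets among 18193 genes and 45101 probe sets. The cells were cultured lineage-negative thymocytes kept on OP9 DL1, a stromal line that presents the Notch ligand Delta-like 1, from which DN3 cells (double-negative stage 3) were taken by a sort for cells with CD25 and without CD44 or lineage markers. The 4 groups, with 2 arrays each, were IkL/L cells with GSI, IkL/L cells with DMSO, WT cells with GSI and WT cells with DMSO. IkL/L is the genotype that the series title describes as Ikaros deficient. GSI is the gamma-secretase inhibitor MRK-003, given for 16 h at a dose labelled as 5 mM, and DMSO is its vehicle. All groups shared the stromal culture and the sort, and the labels give neither the animals' age nor whether the arrays of a group came from separate animals or cultures, so the p-values cover the spread between arrays only, and that spread may be technical. The question was how these genes responded to the inhibitor in each genotype.

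BCL2, BCL-XL (the product of Bcl2l1) and MCL1 hold back the pore-forming proteins BAK and BAX on the outer mitochondrial membrane. The BH3-only proteins, among them BIM (Bcl2l11), BID, PUMA (Bbc3), BMF, BAD and NOXA (Pmaip1), bind the survival proteins, and some of them also activate BAK and BAX directly. Gamma-secretase frees the intracellular part of a ligand-bound Notch receptor, and Notch signals are needed for the survival and growth of DN3 thymocytes.

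Values are log2 levels after robust multi-array averaging (RMA), and a gene is represented by whichever of its probe sets had the highest mean. Array medians lay between 5.25 and 5.33, and replicates of a group correlated across genes with r between 0.985 and 0.995. Between the arrays of a group, 146 genes lay over 2-fold apart with GSI and 153 with DMSO in IkL/L cells, and 830 with GSI and 390 with DMSO in WT cells. Ikzf1, which encodes Ikaros, was at 11.75 and 11.52 with GSI and 11.14 and 11.19 with DMSO in IkL/L cells, and at 12.18 and 11.95 with GSI and 11.95 and 12.17 with DMSO in WT cells. Under DMSO it was lower in IkL/L by a log2 difference of -0.90 ± 0.14 (SE; adjusted p = 0.0222), and under GSI the difference of -0.43 ± 0.14 did not pass (adjusted p = 0.298). Of 13 measured DN3 markers, at most 1 was below the median of any array. None of 7 later thymocyte markers was below it on any array either, with means between 7.52 and 8.63. Such a count therefore cannot tell DN3 cells from later thymocytes. The mean level of the DN3 markers was 10.85 and 10.63 in IkL/L GSI, 11.04 and 11.13 in IkL/L DMSO, 10.61 and 10.70 in WT GSI and 11.09 and 11.13 in WT DMSO. With GSI averaged over genotypes 3 of the 13 (Il2ra, Ptcra and Cd2) fell, where 23.3% of all genes passed. Il2ra and Ptcra are also Notch targets, so their fall is no measure of DN3 identity. Markers of other cells were measured beside them. The mean of 22 myeloid and dendritic markers was 6.27 and 6.16 in IkL/L GSI, 5.25 and 5.26 in IkL/L DMSO, 5.59 and 5.27 in WT GSI and 5.25 and 4.91 in WT DMSO, with 9 to 15 of the 22 below the median of their array, and 8 of the 22 rose with GSI averaged over genotypes (1964 of all 18193 genes rose). Their part in the members' results was not tested. The mean of 22 stromal markers was 7.46 and 6.90 in IkL/L GSI, 7.41 and 6.45 in IkL/L DMSO, 7.87 and 6.02 in WT GSI and 7.15 and 6.26 in WT DMSO, with the array numbered 1 above that numbered 2 in every group, 2 to 9 of the 22 below the median of their array and none passing the test for GSI (0 of 22 in either genotype or averaged). The GAPDH gap (the log2 level of the 3' control probe set minus that of the 5' one), which tracks how intact the RNA was, came to 3.09 and 3.03 in IkL/L GSI, 1.87 and 2.47 in IkL/L DMSO, 2.20 and 3.08 in WT GSI and 1.71 and 2.12 in WT DMSO. Because it was on average wider with GSI, the members' differences are also given below with it as a covariate where that changed a call. In bulk RNA, a change in the share of cells and a change in RNA per cell cannot be told apart.

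Averaged over genotypes, GSI was accompanied by higher RNA of the survival gene Mcl1 and of the BH3-only genes Bmf, Bbc3 and Bcl2l11, and by lower RNA of the BH3-only gene Bid. These 5 of 10 members passed the test (4 higher and 1 lower), where 23.3% of all genes did, and the other 5 (Bcl2, Bcl2l1, Pmaip1, Bad and Bak1) did not. The largest differences were 4.68-fold lower for Bid and 3.21-fold higher for Bmf. The median log2 difference was 0.06 over the members and -0.00 over all genes, and the 5 members that did not pass lay between -0.45 and 0.21. All 4 GSI arrays lay apart from all 4 DMSO arrays for 5 members (Mcl1, Bmf, Bbc3, Bid and Bad), where 22.3% of all genes separated in this way.

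**Figure D1:**
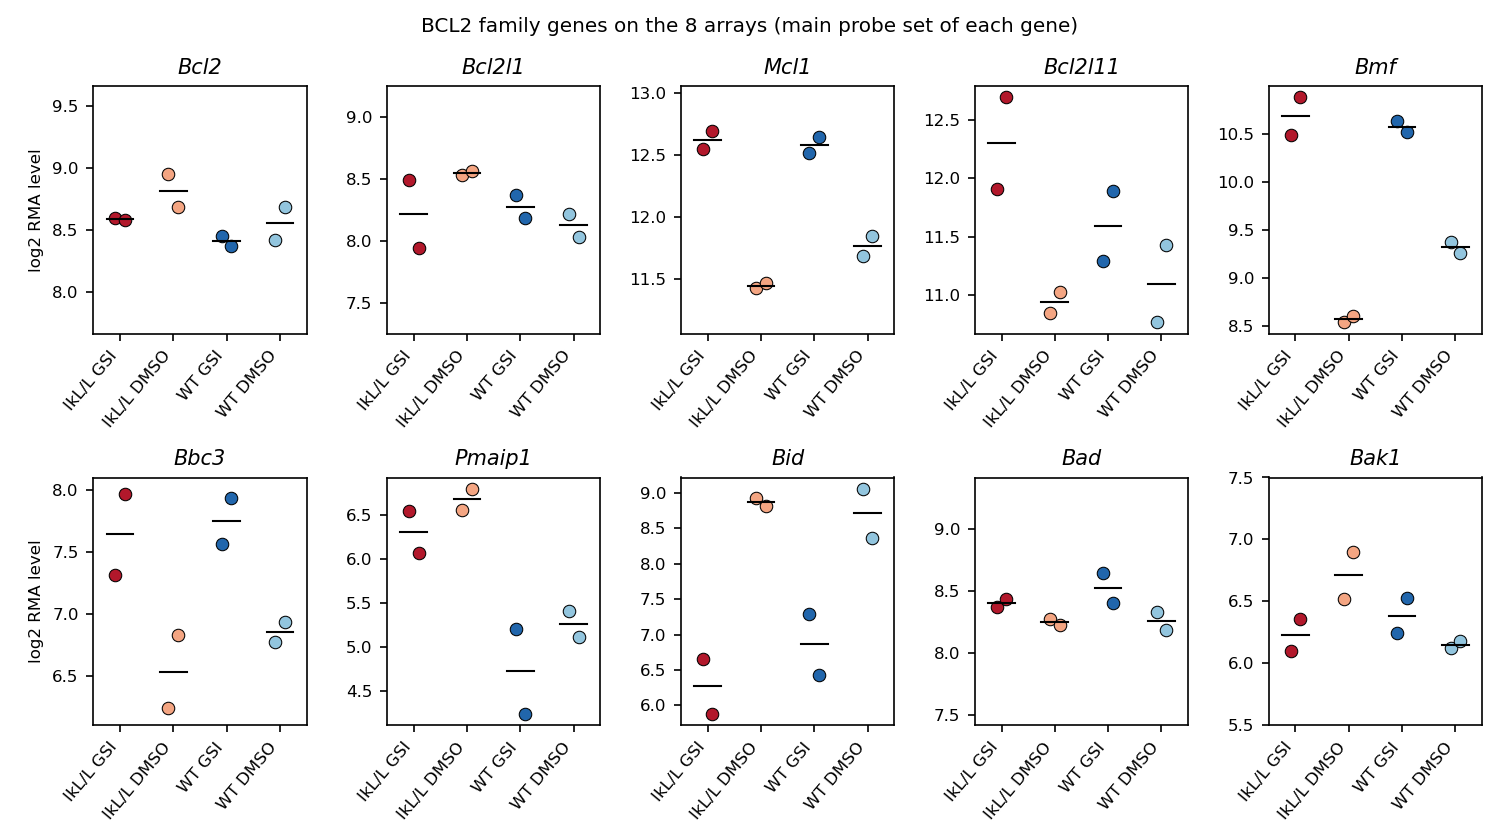
Log2 RMA level (y axis, own range for each gene) of the main probe set of the 10 genes on each of the 8 arrays, by group (x axis); points are arrays and lines are group means. Mcl1 and Bmf are high on the 4 GSI arrays in both genotypes, Bid is low on them, and Pmaip1 differs by genotype, between 6.07 and 6.80 in IkL/L and between 4.24 and 5.41 in WT.

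Mcl1, whose short-lived product is required for the survival of thymocytes, was at 12.55 and 12.69 in IkL/L GSI, against 11.42 and 11.46 in IkL/L DMSO. In WT cells it was at 12.51 and 12.64 with GSI, against 11.68 and 11.84 with DMSO. The GSI arrays of the genotypes interleaved, whereas both IkL/L DMSO arrays lay below both WT DMSO arrays. Mcl1 was higher with GSI by a log2 difference of 1.17 ± 0.11 in IkL/L (2.26-fold, adjusted p = 0.000916) and of 0.81 ± 0.11 in WT (1.76-fold, adjusted p = 0.0116). The WT call was lost without the first WT DMSO array (0.73, adjusted p = 0.0773). The IkL/L call was kept with each array left out in turn.

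The remaining survival genes showed no change that passed. Bcl2, which protects early thymocytes and mature T cells, was at 8.59 and 8.58 in IkL/L GSI, against 8.95 and 8.68 in IkL/L DMSO, and at 8.45 and 8.37 in WT GSI, against 8.42 and 8.68 in WT DMSO. Its averaged difference was -0.19 ± 0.13 (adjusted p = 0.402). Bcl2l1, whose product BCL-XL sustains later, CD4 and CD8 double-positive thymocytes, was at 8.49 and 7.94 in IkL/L GSI, against 8.53 and 8.56 in IkL/L DMSO, and at 8.37 and 8.18 in WT GSI, against 8.22 and 8.03 in WT DMSO. Its averaged difference was -0.09 ± 0.16 (adjusted p = 0.767). In WT the treatments overlapped for both genes, and in IkL/L both GSI arrays lay below both DMSO arrays. Another Bcl2 probe set, 1440770_at, lay the other way in IkL/L, at 9.25 and 8.89 with GSI, against 7.63 and 8.33 with DMSO (1.09 ± 0.36, adjusted p = 0.113), as did 1443837_x_at (0.82 ± 0.43, adjusted p = 0.3).

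Among the BH3-only genes, Bmf and Bcl2l11 are shown with their promoters because both rose with GSI and have a promoter window outside the gene's annotated span. The windows are the 250 bases before a RefSeq transcription start on mouse build GRCm38.p6, printed 5′ to 3′ on the strand of the gene, and they are 1 of the 2 windows of Bcl2l11 and 1 of the 3 windows of Bmf. The others lie at starts within the gene's span and are not printed, as do all 3 windows of Bbc3, which also rose. Bcl2l11 lies on the plus strand (chr2:128125788-128126037), and the capitals mark the single match in this window to GTAAACA, the letters bound by FOXO factors, 220 bases before the start. Bmf lies on the minus strand (chr2:118549687-118549936), and the capitals mark the single match in this window to GGGAA, the core bound by Ikaros, 97 bases before the start. One unprinted Bmf window held 3 matches to GGGAA, of which 2 were also matches to TGGGAA.
Bcl2l11: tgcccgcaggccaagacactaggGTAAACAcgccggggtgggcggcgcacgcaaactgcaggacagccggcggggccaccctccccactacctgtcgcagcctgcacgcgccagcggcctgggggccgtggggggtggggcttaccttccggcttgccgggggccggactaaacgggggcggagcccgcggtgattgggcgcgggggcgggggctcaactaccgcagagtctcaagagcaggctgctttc
Bmf: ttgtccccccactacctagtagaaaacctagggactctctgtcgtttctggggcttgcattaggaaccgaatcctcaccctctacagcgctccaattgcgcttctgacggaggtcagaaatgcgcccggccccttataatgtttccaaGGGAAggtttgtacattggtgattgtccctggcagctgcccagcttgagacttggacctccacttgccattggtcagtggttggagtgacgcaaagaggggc
On either strand, GTAAACA was present in 2 of the 17 windows available for 9 of the members and in 3.17% of all 32851 promoter windows of this length. These 2 were the printed window of Bcl2l11 and 1 unprinted window of Bbc3, with the match 160 bases before the start. GGGAA was present in 10 of the 17 and in 56.2% of all windows. TGGGAA, the core bound by the Notch partner RBPJ, which contains GGGAA, was in 3 of the 17 and in 21.6% of all, and CACGTG, the E-box bound by MYC, was in 1 of the 17 and in 6.02% of all. A match is a description of the letters and not a measured site.

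Bmf encodes a BH3-only protein that is held on the cytoskeleton through dynein light chains. It was at 10.49 and 10.88 in IkL/L GSI, against 8.54 and 8.61 in IkL/L DMSO. In WT cells it was at 10.63 and 10.52 with GSI, against 9.38 and 9.26 with DMSO. The GSI levels of the genotypes interleaved, and the IkL/L DMSO arrays were the lowest of all. Bmf was higher with GSI by 2.11 ± 0.18 in IkL/L (4.32-fold, adjusted p = 0.000779) and by 1.25 ± 0.18 in WT (2.38-fold, adjusted p = 0.0124). The WT call was lost without the first WT DMSO array (1.31, adjusted p = 0.0715) or the second (1.20, adjusted p = 0.0653).

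Bcl2l11 encodes BIM, which is needed for the deletion of self-reactive thymocytes and for death on cytokine withdrawal. It was at 11.91 and 12.69 in IkL/L GSI, against 10.85 and 11.03 in IkL/L DMSO. In WT cells it was at 11.29 and 11.89 with GSI, against 10.77 and 11.43 with DMSO. The IkL/L groups were apart, while the WT groups overlapped. In every group but IkL/L DMSO, the arrays were more than 0.5 log2 units from each other. Bcl2l11 was higher with GSI by 1.36 ± 0.32 in IkL/L (2.56-fold, adjusted p = 0.0225) and by 0.92 ± 0.22 averaged over genotypes (adjusted p = 0.0197), while the WT difference of 0.49 ± 0.32 did not pass (adjusted p = 0.46). Without the first IkL/L DMSO, the second IkL/L DMSO or the second IkL/L GSI array the IkL/L call was lost (adjusted p = 0.137, 0.0854 and 0.156), and the averaged call was lost without any of these or the first WT DMSO array (adjusted p between 0.0505 and 0.0734). With the GAPDH gap as a covariate the averaged difference was 0.40 (adjusted p = 0.413) and that in IkL/L 0.78 (adjusted p = 0.186).

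Bbc3 encodes PUMA, a BH3-only protein induced by p53 and by FOXO3. It was at 7.32 and 7.97 in IkL/L GSI, against 6.24 and 6.83 in IkL/L DMSO. In WT cells it was at 7.57 and 7.94 with GSI, against 6.78 and 6.94 with DMSO. All 4 GSI arrays were above all 4 DMSO arrays, with no separation of the genotypes. Bbc3 was higher by 1.11 ± 0.29 in IkL/L (2.16-fold, adjusted p = 0.0339) and by 1.00 ± 0.20 averaged over genotypes (2.01-fold, adjusted p = 0.00886), and the WT difference of 0.90 ± 0.29 did not pass (adjusted p = 0.117) but did with the stromal marker level as a covariate (0.98, adjusted p = 0.00994). The averaged call was kept with each array left out in turn. The IkL/L call was lost without the first IkL/L DMSO, the second IkL/L DMSO, the second IkL/L GSI or the first WT DMSO array (adjusted p = 0.245, 0.0513, 0.208 and 0.0501), with further quantile normalization (adjusted p = 0.0508) and in the fit of all probe sets (adjusted p = 0.0693). With the GAPDH gap as a covariate the averaged difference was 0.57 (adjusted p = 0.196) and that in IkL/L 0.63 (adjusted p = 0.26).

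Bid, whose product is cleaved by caspase-8 and links death receptors to mitochondria, moved the other way. It was at 6.66 and 5.88 in IkL/L GSI, against 8.93 and 8.81 in IkL/L DMSO. In WT cells it was at 7.29 and 6.43 with GSI, against 9.06 and 8.37 with DMSO. No GSI array reached the lowest DMSO array. Bid was lower with GSI by a log2 difference of -2.60 ± 0.37 in IkL/L (6.07-fold, adjusted p = 0.00322) and of -1.85 ± 0.37 in WT (3.61-fold, adjusted p = 0.0286). The IkL/L call was kept with each array left out. The WT call was kept in 3 of 8 such fits and was lost without the first or second WT DMSO, the second WT GSI, or the first or second IkL/L DMSO array (adjusted p = 0.153, 0.0657, 0.0871, 0.065 and 0.0649). With the GAPDH gap as a covariate the WT difference was -1.27 (adjusted p = 0.0523).

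The other BH3-only genes and Bak1 did not pass in either genotype. Bad, whose product is kept inactive by phosphorylation and binding to 14-3-3 proteins, was at 8.37 and 8.44 in IkL/L GSI, against 8.28 and 8.23 in IkL/L DMSO, and at 8.65 and 8.41 in WT GSI, against 8.33 and 8.19 in WT DMSO. The GSI arrays were above the DMSO arrays, but the averaged difference was 0.21 ± 0.13 (adjusted p = 0.316). Pmaip1, which encodes NOXA, a BH3-only protein with a preference for MCL1, was at 6.55 and 6.07 in IkL/L GSI, against 6.56 and 6.80 in IkL/L DMSO, and at 5.21 and 4.24 in WT GSI, against 5.41 and 5.11 in WT DMSO. Its averaged difference of -0.45 ± 0.22 did not pass (adjusted p = 0.203), but it passed without the first WT GSI array (-0.69, adjusted p = 0.0177) and with the stromal marker level as a covariate (-0.55, adjusted p = 0.0198). Bak1, which encodes the pore-forming protein BAK, was at 6.10 and 6.36 in IkL/L GSI, against 6.52 and 6.90 in IkL/L DMSO, and at 6.24 and 6.53 in WT GSI, against 6.12 and 6.18 in WT DMSO. Its differences were -0.48 ± 0.20 in IkL/L (95% interval -0.94 to -0.02, adjusted p = 0.147) and 0.24 ± 0.20 in WT (adjusted p = 0.576). In IkL/L Bak1 passed with the GAPDH gap as a covariate (-0.82, adjusted p = 0.041) and with its probe sets averaged (-0.47, adjusted p = 0.0469).

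By genotype, 5 of 10 members passed in IkL/L (4 higher and 1 lower), where 16.8% of all genes did, and 3 of 10 passed in WT (Mcl1 and Bmf higher, Bid lower), where 6.47% did. The GSI and DMSO arrays did not overlap for 10 of 10 members in IkL/L, where 62.4% of all genes did not, and for 6 of 10 in WT, where 44% did not. With each array left out in turn, the WT differences lay between 0.73 and 0.89 for Mcl1, 1.20 and 1.31 for Bmf, and -2.28 and -1.42 for Bid. Whether these 3 passed in WT depended on the array left out, as given above. A limma fit of the 4 WT arrays alone called no member, and only 1 of all 18193 genes. Its adjusted p was 0.0882 for Mcl1, 0.0833 for Bmf and 0.12 for Bid.

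**Figure D2:**
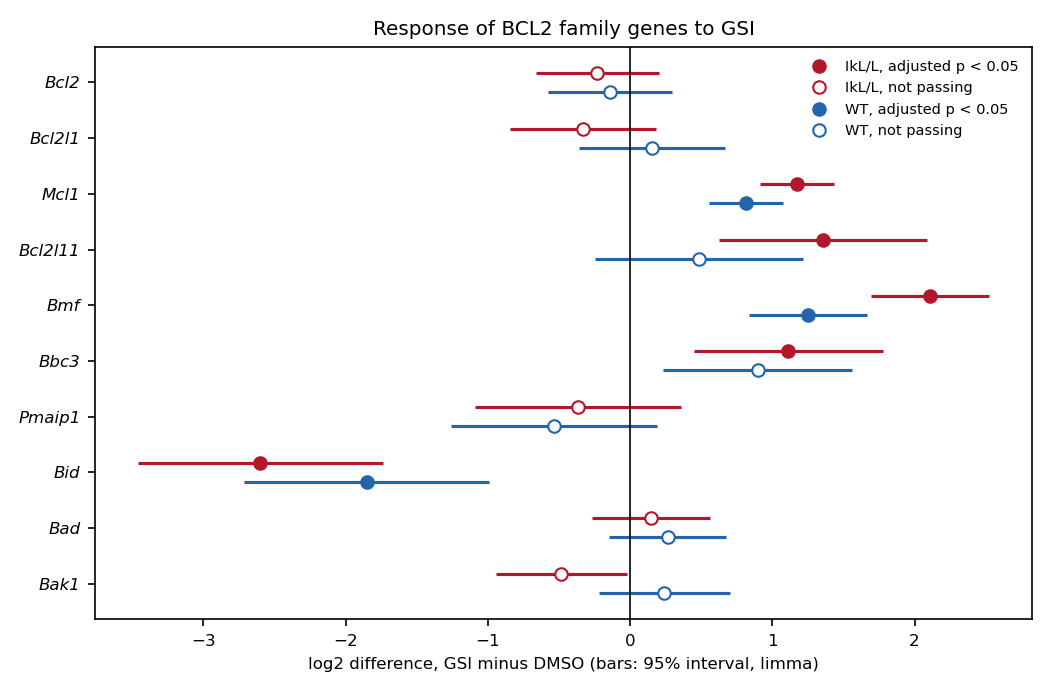
Log2 difference GSI minus DMSO (x axis) of each gene (y axis) in IkL/L (red, upper) and WT (blue, lower) from limma; bars are 95% intervals, filled points have an adjusted p below 0.05 and open points do not. Bmf reaches 2.11 in IkL/L and 1.25 in WT, and Bid lies at -2.60 in IkL/L and -1.85 in WT.

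Whether the genotypes differed in their response was tested by the interaction, the IkL/L difference minus the WT difference. None of the 10 members passed, where 0.044% of all genes did, and 2 had an unadjusted p below 0.05, where 5.99% of all genes did. These were Bmf, with an interaction of 0.86 ± 0.26 (adjusted p = 0.667), and Bak1, with -0.72 ± 0.28 (adjusted p = 0.812). For Mcl1 it was 0.36 ± 0.16 (adjusted p = 0.834), for Bcl2l11 0.87 ± 0.45 (adjusted p = 0.858) and for Bid -0.75 ± 0.53 (adjusted p = 0.891). A larger response of any member in IkL/L than in WT was therefore not shown.

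The genotypes were then compared within each treatment. Under DMSO, 0 of 10 members passed in limma, where 1.74% of all genes did, and 4 had an unadjusted p below 0.05, where 10.2% did. These were Pmaip1, with an IkL/L minus WT difference of 1.42 ± 0.31 (adjusted p = 0.0779), Bmf with -0.74 ± 0.18 (adjusted p = 0.112), Mcl1 with -0.32 ± 0.11 (adjusted p = 0.329) and Bak1 with 0.56 ± 0.20 (adjusted p = 0.329). Under GSI, 0 of 10 passed in limma, where 1.46% of all genes did, and 1 had an unadjusted p below 0.05, where 10.7% did: Pmaip1, with 1.59 ± 0.31 (adjusted p = 0.0582). With each array left out in turn, Pmaip1 passed under DMSO only without the first or the second WT GSI array. Neither array is part of that comparison, and the difference stayed at 1.42. Under GSI Pmaip1 passed only without the first WT GSI array (2.07). Over all these fits its difference lay between 1.27 and 1.57 under DMSO and between 1.10 and 2.07 under GSI. With the GAPDH gap as a covariate Pmaip1 passed under DMSO (1.58, adjusted p = 0.00789) and under GSI (1.85, adjusted p = 0.00637), and Bmf under DMSO (-0.72, adjusted p = 0.0373).

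Pmaip1 had the same order of genotypes under both treatments, with all 4 IkL/L arrays (6.07 to 6.80) above all 4 WT arrays (4.24 to 5.41), a separation that 5.02% of all genes showed. In a contrast added after these values were seen, IkL/L minus WT averaged over the treatments, Pmaip1 was 2.84-fold higher in IkL/L (1.51 ± 0.22, adjusted p = 0.00871). It was the only 1 of 10 members to pass, where 3.8% of all genes did, and it passed with each array left out in turn (adjusted p between 0.00137 and 0.0489). The contrast uses the same arrays as those within each treatment and is no independent evidence. Pmaip1 has a single probe set here, and 3 of its 4 WT values lay below the median of their own array. Of the 22 myeloid and dendritic markers 7 were also higher in IkL/L in this contrast (358 of all 18193 genes were), and their part in the Pmaip1 result was not tested.

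**Figure D3:**
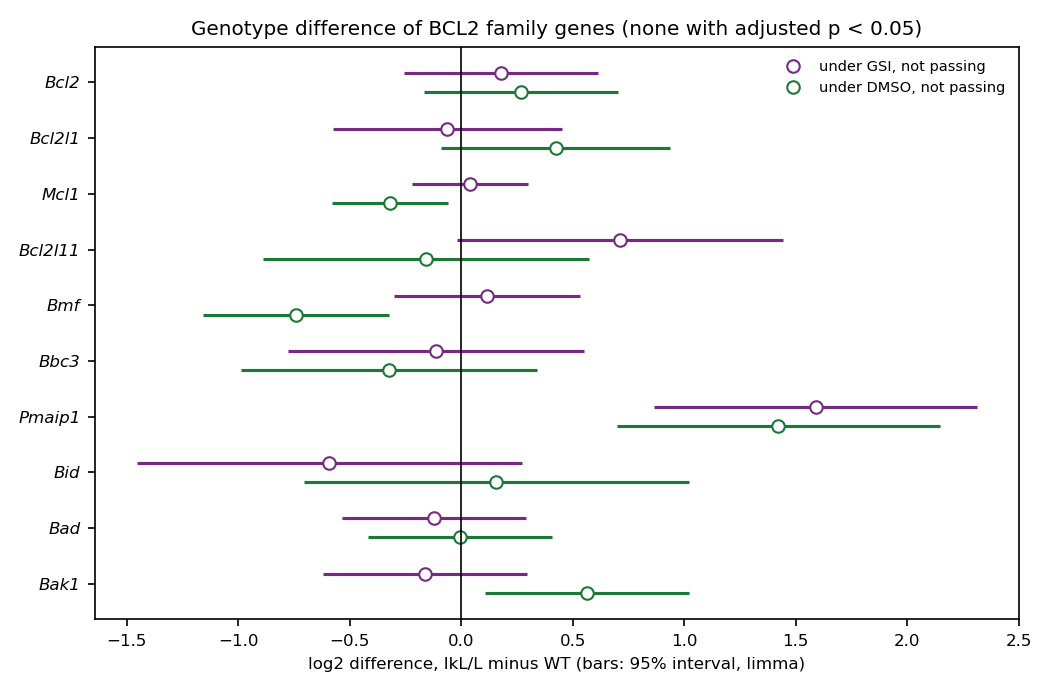
Log2 difference IkL/L minus WT (x axis) of each gene (y axis) under GSI (purple, upper) and under DMSO (green, lower) from limma; bars are 95% intervals, and open points did not pass an adjusted p of 0.05. Pmaip1 lies at 1.59 under GSI and 1.42 under DMSO, and Bmf at 0.11 under GSI and -0.74 under DMSO.

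The 32 probe sets were tested in a second fit over all 45037 non-control probe sets. Averaged over genotypes, 11 of 32 passed (8 higher and 3 lower), where 14.7% of all probe sets did. For Bid all 3 probe sets fell, with log2 differences of -2.23, -1.20 and -1.12. In WT alone only 1448560_at passed (-0.83, adjusted p = 0.0462) and the main probe set did not (-1.85, adjusted p = 0.0734). The probe sets other than the main one were dim. With GSI 1448560_at lay between 4.14 and 4.59 and 1447873_x_at between 4.43 and 4.75, below every array median (5.25 to 5.33). For Mcl1 4 of 6 rose, by 0.76 to 1.03: 1437527_x_at (the main one), 1456243_x_at, 1456381_x_at and 1416880_at. Neither 1448503_at (0.27, adjusted p = 0.398) nor 1416881_at (0.09, adjusted p = 0.821) passed, although 1448503_at was bright (mean level 11.39). For Bcl2l11 2 of 5 rose (0.92 for 1456005_a_at and 0.97 for 1435448_at), and the other 3 ranged between -0.08 and 0.63. For Bmf 1 of 3 rose, by 1.68 for 1454880_s_at, while 1458325_x_at (0.39, adjusted p = 0.122) and 1422995_at (0.47, adjusted p = 0.218) did not pass. The single Bbc3 probe set rose by 1.00. None of the other 14 probe sets passed. With a gene's probe sets averaged, Bcl2l11 no longer passed averaged over genotypes (0.53, adjusted p = 0.0927) or in IkL/L (0.86, adjusted p = 0.0713), and in WT neither did Mcl1 (0.54, adjusted p = 0.0529) or Bmf (0.67, adjusted p = 0.085). For Bcl2 the probe sets differed in sign: 1457687_at, with the highest mean, was at -0.19, while 1440770_at was at 0.60 (adjusted p = 0.183) and 1443837_x_at at 0.62 (adjusted p = 0.25). By genotype 10 of 32 passed in IkL/L, where 9.69% of all probe sets did, and 5 of 32 passed in WT, where 1.58% did. Probe sets of a gene share its RNA and are no replicates.

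**Figure D4:**
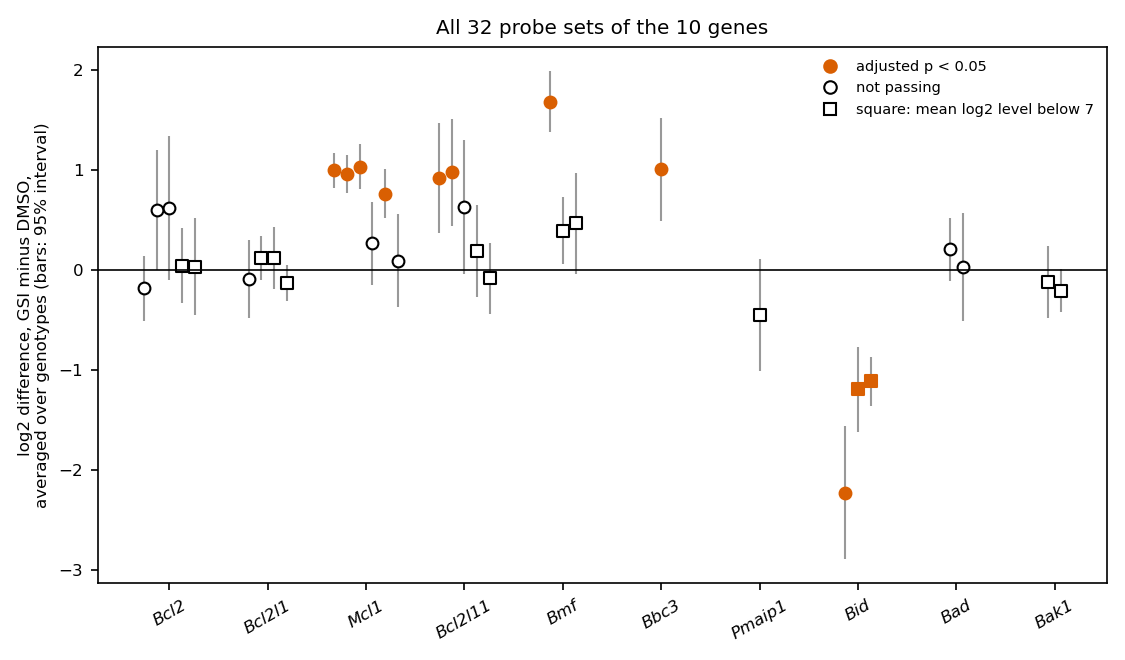
Log2 difference GSI minus DMSO averaged over genotypes (y axis) of all 32 probe sets, grouped by gene (x axis); bars are 95% intervals, filled points have an adjusted p below 0.05, and squares have a mean log2 level below 7. All 3 Bid probe sets lie below 0, between -2.23 and -1.12, and the Mcl1 probe sets spread between 0.09 and 1.03.

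Of 19 other BCL2 family genes 13 were measured, and 2 rose with GSI averaged over genotypes, where 23.3% of all genes passed: Bnip3, a BH3-like protein of the mitochondrial membrane that acts in mitophagy, by 1.07 ± 0.23 (adjusted p = 0.0108), and Bcl2l13, a mitochondrial BCL2 homologue, by 0.51 ± 0.13 (adjusted p = 0.0262). Bnip3 was at 8.17 and 8.30 in IkL/L GSI, against 6.62 and 6.42 in IkL/L DMSO, and at 8.65 and 8.23 in WT GSI, against 8.52 and 7.52 in WT DMSO. It rose in IkL/L (1.72 ± 0.32, adjusted p = 0.00882), the only 1 of the 13 to pass there (16.8% of all genes), and none passed in WT in limma (6.47% of all genes; 1 of the 13 at an unadjusted p below 0.05), where Bnip3 was at 0.42 ± 0.32 (adjusted p = 0.543). The survival gene Bcl2l2 was at 0.87 ± 0.26 in IkL/L (adjusted p = 0.0557). The other 10 genes (Bcl2l10, Bok, Bik, Hrk, Bcl2l12, Bcl2l14, Bcl2l15, Bnip1, Bnip2 and Bnipl) had averaged differences between -0.32 and 0.14. The median over the 13 was 0.06. Bax, Bnip3l and the 4 Bcl2a1 genes were not analysed here.

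Of 30 genes of the mitochondrial death pathway and its caspases 27 were measured, and averaged over genotypes 4 rose and 8 fell (23.3% of all genes passed), with a median of -0.21 against -0.00 over all genes. Birc3, an inhibitor of apoptosis protein that acts in NF-kB signalling, rose by 1.17 ± 0.19 (adjusted p = 0.00341). Cycs, the cytochrome c that leaves opened mitochondria and that carries electrons in respiration, fell to 11.69 and 11.28 in IkL/L GSI cells, against 12.82 and 12.77 in IkL/L DMSO, and to 11.69 and 11.63 in WT GSI, against 12.82 and 12.56 in WT DMSO (averaged -1.17 ± 0.11, adjusted p = 0.000381). The p53-induced nuclease gene Aen (-1.35 ± 0.25, adjusted p = 0.00599) and Birc5, which encodes survivin, a protein of dividing cells (-1.26 ± 0.16, adjusted p = 0.00111), fell as well. In IkL/L 3 of the 27 rose and 6 fell (16.8% of all genes passed), among them Birc3 (1.77 ± 0.27) and Aen (-1.57 ± 0.35). In WT, where 6.47% of all genes passed, none rose and 2 fell, Cycs (-1.03 ± 0.15, adjusted p = 0.0128) and Birc5 (-1.18 ± 0.23, adjusted p = 0.0241).

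Of 36 regulators of these genes and proteins 31 were measured, and averaged over genotypes 6 rose and 7 fell (23.3% of all genes passed), with a median of -0.06. Myc, a growth regulator and known Notch target in T cell precursors, was at 8.09 and 6.14 in IkL/L GSI, against 10.79 and 10.50 in IkL/L DMSO, and at 9.49 and 8.57 in WT GSI, against 10.79 and 10.48 in WT DMSO. It fell by 2.57 ± 0.40 on the log2 scale averaged over genotypes (adjusted p = 0.00279). Ddit3, which encodes the stress factor CHOP, rose by 1.19 ± 0.22 (adjusted p = 0.00573). The cell cycle factor E2f1 fell (-1.12 ± 0.15, adjusted p = 0.00162), as did Dynll2, the dynein light chain that binds BMF (-1.01 ± 0.23, adjusted p = 0.0154). In IkL/L 5 of the 31 rose and 5 fell (16.8% of all genes passed), among them Myc (-3.53 ± 0.57), E2f1 (-1.43 ± 0.22), Ddit3 (1.36 ± 0.31) and Bag1, a chaperone cofactor that binds BCL2 (-1.07 ± 0.17). In WT, where 6.47% of all genes passed, 2 rose and none fell: Foxo3, a transcription factor held in check by AKT (0.90 ± 0.21, adjusted p = 0.0471), and the survival kinase gene Pim1 (0.83 ± 0.20, adjusted p = 0.0457). Both were higher with GSI in IkL/L too. There Foxo3 was at 9.82 and 9.90 with GSI, against 8.82 and 8.76 with DMSO, and Pim1 at 10.28 and 10.08, against 9.34 and 9.36. In the interaction, and between the genotypes within either treatment, none of the genes of these 3 lists passed in limma. Of the other BCL2 family genes 1, of the death pathway genes 4 and of the regulators 2 had an unadjusted p below 0.05 in the interaction (5.99% of all genes). Between the genotypes these counts were 2, 3 and 4 under GSI (10.7% of all genes) and 2, 3 and 1 under DMSO (10.2% of all genes). With the smallest p of their list in the interaction, Bnip3 was at 1.30 ± 0.45 (adjusted p = 0.763), Bcl2l2 at 0.84 ± 0.37 (adjusted p = 0.831), Birc3 was at 1.20 ± 0.38 (adjusted p = 0.686), its relative Birc2 at 0.61 ± 0.22 (adjusted p = 0.771), the transcriptional repressor gene Gfi1 at 0.67 ± 0.23 (adjusted p = 0.761) and Myc at -1.92 ± 0.80 (adjusted p = 0.822). For IkL/L minus WT under GSI these were Bcl2l13 (0.53 ± 0.19, adjusted p = 0.329), Bcl2l2 (0.71 ± 0.26, adjusted p = 0.358), Birc3 (0.98 ± 0.27, adjusted p = 0.182), the death ligand gene Fasl (-0.59 ± 0.17, adjusted p = 0.206), Gfi1 (0.78 ± 0.16, adjusted p = 0.0716) and the 14-3-3 gene Ywhaq (0.41 ± 0.11, adjusted p = 0.181). Under DMSO they were Bnip3 (-1.50 ± 0.32, adjusted p = 0.0687), Bcl2l14 (-0.60 ± 0.25, adjusted p = 0.475), Birc2 (-0.59 ± 0.16, adjusted p = 0.148), Fasl (-0.60 ± 0.17, adjusted p = 0.18), the chaperone cofactor gene Bag3 (1.02 ± 0.23, adjusted p = 0.0882) and the dynein light chain gene Dynll1 (0.22 ± 0.10, adjusted p = 0.503). Averaged over treatments, Fasl was lower in IkL/L (-0.60 ± 0.12, adjusted p = 0.0339), the only 1 of the 27 death pathway genes to pass (3.8% of all genes). Its levels, between 3.39 and 4.94, lay below the median of every array (5.25 to 5.33), so this difference is near background.

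For each member that passed averaged over genotypes, the genes with the most similar profile were found by the root mean square difference of centred log2 values over the 8 arrays, given here as a description. Nearest to Mcl1 were Tut7 (0.0511), Bbip1 (0.0617) and Khnyn (0.074). Nearest to Bmf were Selenop (0.0934), Tcn2 (0.113) and Cd53 (0.123). For Bbc3 they were Cmtm7 (0.111), Adamts10 (0.134) and Acap1 (0.141), for Bcl2l11 Rreb1 (0.171), Ccdc39 (0.187) and Ralgps2 (0.19), and for Bid Nolc1 (0.166), Ppa1 (0.17) and Lap3 (0.171). All 8 arrays share the treatment groups that set these profiles apart.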

How the data were processed

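RNA of the sorted cells was labelled in 2 cycles from 15 to 100 ng and hybridised to Affymetrix mouse arrays, per the labels; the RNA amount of each sample was not mapped. The deposited values are log2 levels that the authors made with RMA, per the submitters' processing notes; its version is not given in the sources used here. They were used as deposited. Gene names came from the platform annotation: of 45101 probe sets, 64 controls, 932 with several genes and 9160 not listed were left out, and for 9010 genes with several probe sets the one with the highest mean was kept, which gave 18193 genes, with no filter on low values.

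Groups came from the sample titles. limma 3.58.1 in R 4.3.3 (lmFit, contrasts.fit, eBayes with a trend; 4 residual and 4.11 prior degrees of freedom) was fitted to all 8 arrays with the 4 groups as terms, with two-sided tests and Benjamini-Hochberg adjustment over all genes. Calls needed an adjusted p below 0.05. Errors are moderated standard errors (SE). A second fit used 45037 probe sets. Precision is limited by how few arrays there are.

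The members and gene lists were chosen with earlier results of these data known; 168 of the lists' 187 genes were measured, and the others were not analysed here. All members and other BCL2 family genes were named, up to 4 passing genes of each other list by size (or the 2 with the smallest p, where fewer than 2 passed) and the 3 nearest profiles. The cell marker lists are given by counts and means. Among them, with GSI averaged over genotypes (23.3% of all genes passed), of 7 later thymocyte markers 1 rose and 1 fell, of 11 B cell markers 2 rose and 1 fell, and of 12 natural killer and innate lymphoid markers 1 rose.

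Alternatives were a replicate block, averaging the probe sets of a gene, testing every probe set, keeping genes above the median, further quantile normalization or centring, no trend in eBayes, a fit of the 4 arrays compared alone, and leaving out each array; a group then left with 1 array was assumed to vary like the others. Fits without both WT arrays numbered 1, or with a stromal or GAPDH covariate, and the genotype contrast averaged over treatments were chosen after seeing the data.

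The fit was also tested on simulated data in which the changed genes were known. Of 100 genes changed by 1 log2 unit it called 77 for GSI averaged over genotypes, 47 in WT and 42 in IkL/L. For the interaction it called only 15. Of 100 changed by 2 log2 units it called 99, 96, 99 and 70. An interaction near 1 log2 unit would thus mostly be missed. Promoter windows came from RefSeq tables of GRCm38.p6, with 17 windows for 9 members. Tables and plots used pandas 2.3.3, numpy 2.4.6 and matplotlib 3.10.9 in Python 3.11.15.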

Additional observations from a re-analysis of the deposited data

Results flagged for a closer look

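On its main probe set, Bak1 differed in opposite directions between treatments in the 2 genotypes. Both GSI arrays lay below both DMSO arrays in IkL/L and above both DMSO arrays in WT. The other probe set, 1425716_s_at, was also lower with GSI in IkL/L (-0.45 ± 0.13), but in WT its treatments overlapped (0.03 ± 0.13). The interaction of the main probe set, -0.724 ± 0.281 (SE), did not pass in limma (unadjusted p = 0.0326, adjusted p = 0.812).

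The Bcl2l11 probe set 1456006_at showed the opposite pattern, at 6.53 and 7.30 in IkL/L GSI, against 6.18 and 6.43 in IkL/L DMSO, and at 6.30 and 6.09 in WT GSI, against 6.54 and 6.32 in WT DMSO. Its interaction of 0.849 ± 0.395 in the fit of all probe sets did not pass in limma (unadjusted p = 0.0673, adjusted p = 0.949). Groups of 2 arrays allowed no test for an outlying array.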

How the results depend on the processing

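Of 1293 member values under the alternatives, 1234 kept their side of the threshold, 34 no longer passed, 25 newly passed and no called value changed sign. Most of the 70 member contrasts behind these values did not pass in the main fit, so most of the 1234 had no call to lose. The number of members called for GSI in WT, 3, was 1 with the mean over probe sets, 0 with only the 4 arrays compared and 0 to 3 with an array left out; Bbc3 passed in WT with the stromal covariate (adjusted p = 0.00994). In IkL/L it was 5, and 3 to 5 with an array left out. Averaged over genotypes it was 5, 4 to 6 with an array left out and 3 with the GAPDH covariate, as Bcl2l11 and Bbc3 no longer passed. The 11 probe sets called ranged from 8 to 13 with an array left out. For the genotype under DMSO, 0 members became 1 with centring, with only the 4 arrays, or without both WT arrays numbered 1, and 2 with the stromal or the GAPDH covariate, as Pmaip1 and, with the covariates, Bmf passed; leaving out an array gave 0 to 1. Under GSI, 0 became 1 with further quantile normalization, centring, the GAPDH covariate or without both WT arrays numbered 1, and 2 with the stromal covariate (Pmaip1 and Bcl2l11); leaving out an array gave 0 to 1. The genotype contrast averaged over treatments called 1, and 0 among genes above the median level, since that filter removed Pmaip1. The interaction called 0 members under each alternative run. The cause of these moves was otherwise not tested. With the replicate number as a block, Pmaip1 made the genotype counts 1 under DMSO and 1 under GSI, and Bbc3 passed in WT (adjusted p = 0.0192). The labels do not say that the numbers pair samples, and the replicate gaps of the groups correlated across genes between -0.113 and 0.71. Over all genes, the 1177 calls for GSI in WT ranged from 1 (only the 4 arrays) to 3180 (stromal covariate), with 9 without the first WT DMSO array; the 3055 in IkL/L from 947 (without the first IkL/L DMSO array) to 5174 (stromal covariate); the averaged 4235 from 2616 (without the first IkL/L DMSO array) to 6078 (stromal covariate), with 6623 of 45037 probe sets called where each was a feature; the 8 for the interaction from 0 to 64 (GAPDH covariate); the 316 under DMSO from 76 to 1063, the 266 under GSI from 100 to 859, and the 691 averaged over treatments from 327 to 1663. Signal near background limits Pmaip1 and the dimmer probe sets.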
